A study of Mus musculus with 17 samples.

Results

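The miR-23, miR-24 and miR-27 microRNAs (miRNAs) were followed through 9 of the 1487 small RNAs (smRNAs) in a count table from mouse fecal exosomes. The 9 were taken by name: mmu-miR-23a-3p, mmu-miR-23a-5p, mmu-miR-23b-3p, mmu-miR-23b-5p, mmu-miR-24-3p, mmu-miR-27a-3p, mmu-miR-27a-5p, mmu-miR-27b-3p and mmu-miR-27b-5p. All 9 were in the table, and together they held 0.476% of its counts. Exosomes are small membrane vesicles that cells release, here precipitated from homogenised fecal pellets. Every mouse lacked interleukin 10 (genotype IL-10 KO, C57BL/6J background), a strain that develops chronic bowel inflammation, so the start-point libraries are knockout libraries too. The mice were obtained at 4 weeks of age and housed singly, and their ages at the start-point and the end-point are not given in the labels. No wild-type library was analysed here. There were 10 start-point libraries (7 from males, 3 from females) and 7 end-point libraries (5 from males, 2 from females) from 10 mice, of which 6 had both time points. End-point libraries 1 and 2 both carry the label of mouse 1.

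A miRNA is cut from a hairpin precursor that can yield a mature strand from each of its arms, named 5p and 3p. Bases 2 to 8 of the mature strand, the seed, choose the messenger RNAs it silences. The miR-23, miR-27 and miR-24 hairpins lie side by side in 2 paralogous clusters, and in each cluster they are made from 1 primary transcript. The 3p arms are the strands most often studied as active. They are known for roles in endothelial cells and angiogenesis, in T cell responses and, for miR-27, in lipid metabolism.

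The mature sequences are shown first because arms of the 2 clusters differ by as little as 1 base. They are RefSeq's, of assembly GRCm38.p6, for the 8 members that matched, written 5′ to 3′ with the seed in capitals. The 3p arms come first, then the 5p arms.
mmu-miR-23a-3p: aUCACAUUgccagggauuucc
mmu-miR-27a-3p: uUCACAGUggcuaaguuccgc
mmu-miR-27b-3p: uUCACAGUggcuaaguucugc
mmu-miR-24-3p: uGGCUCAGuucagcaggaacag
mmu-miR-23a-5p: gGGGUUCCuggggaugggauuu
mmu-miR-23b-5p: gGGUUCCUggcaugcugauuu
mmu-miR-27a-5p: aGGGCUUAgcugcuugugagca
mmu-miR-27b-5p: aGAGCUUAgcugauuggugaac
The 3p arms of miR-27a and miR-27b share their seed and 20 of 21 bases, and differ by C19U, counted from the 5′ end of miR-27a-3p. Their 5p arms were less alike, with 14 of 22 bases the same. The seeds of miR-23a-3p and miR-27a-3p share 6 of 7 positions. How reads that match several arms were assigned is not stated in the sources used here, so the split of counts between miR-27a-3p and miR-27b-3p is uncertain.

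The first cluster spans 404 bases of chromosome 8 on the plus strand. It holds Mir23a (chr8:84208518-84208592), Mir27a (chr8:84208672-84208758) and Mir24-2 (chr8:84208815-84208921), the last overlapping an exon of the long noncoding RNA gene Gm26532. The second spans 792 bases of chromosome 13, also on the plus strand. Its hairpins are Mir23b (chr13:63300484-63300557), in an intron of the protein-coding gene 2010111I01Rik, and Mir27b (chr13:63300712-63300784) and Mir24-1 (chr13:63301208-63301275), which overlap annotated exons of that gene. All of the chromosome 13 hairpins also lie within an intron of Fancc, which runs on the other strand. The mature miR-24-3p is the same molecule from both clusters, so its count cannot be assigned to either. Mir24-1 and Mir24-2 differ in their 5p arms, and antisense hairpins, Mir3074-1 and Mir3074-2, lie opposite them. Of the 5 mature arms of these hairpins that are not members, 4 matched a sequence, and miR-3074-1-3p did not. The 4 are shown because their counts are set beside miR-24-3p.
mmu-miR-24-1-5p: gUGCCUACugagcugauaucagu
mmu-miR-24-2-5p: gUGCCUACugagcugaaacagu
mmu-miR-3074-5p: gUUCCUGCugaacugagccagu
mmu-miR-3074-2-3p: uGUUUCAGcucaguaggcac
The 2 miR-24 5p arms share their seed and their first 16 bases. All 20 bases of miR-3074-2-3p are complementary to miR-24-2-5p, and miR-3074-5p overlaps miR-24-3p by 20 bases on the opposite strand at both loci. Counting is not stated to use strand, so values of these overlapping arms are uncertain.

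Library totals ran from 87527 to 178075 counts at the start-point and from 32320 to 161862 at the end-point. The shallowest were end-point libraries 1, 3 and 7, the 3 with under 75000 counts. Levels are given as CPM, the count scaled to the library's total. A count of 3, taken as the detection floor, was worth 16.8 to 92.8 CPM. Within each time point, rank correlation over the tested smRNAs was used to split the libraries into 2 sets, a number fixed beforehand. These held 6 and 4 libraries at the start-point and 4 and 3 at the end-point, the 3 being the shallow libraries. Mean Spearman rho was 0.741 within and 0.493 between the start-point sets, and 0.672 and 0.366 for the end-point sets. The split was made inside each time point, so how the sets relate to the time point cannot be read from it. Of 9 miRNAs listed as markers of intestinal epithelium, 8 were in the table, and their summed level ran from 3226 to 19689 CPM at the start-point and from 2970 to 38181 CPM at the end-point, the highest sum being mostly miR-200b-3p at 35672 CPM in end-point library 2. Single markers went different ways. miR-192-5p ran from 448 to 6313 CPM at the start-point and from 92.8 to 291 CPM at the end-point, without overlap. miR-429-3p, miR-375-3p and miR-194-5p were below their start-point median in 7 of 7 end-point libraries and miR-200a-3p in 6, while miR-215-5p was above its own in 6 and miR-141-3p in 5. The endothelial markers miR-126a-3p and miR-126a-5p were not among the smRNAs analysed. Summed levels of 4 of 5 leukocyte markers ran from 387 to 3361 CPM at the start-point and from 237 to 3114 CPM at the end-point. For 3 of 4 muscle markers the ranges were 400 to 2169 CPM and 334 to 12136 CPM, and for 2 of 3 red cell markers they were 149 to 1006 CPM and 12.4 to 530 CPM. The red cell marker miR-451a was at 0 in 11 of 17 libraries. Single markers of these lists also went different ways. miR-223-3p and miR-143-3p were above their start-point median in 5 of 7 end-point libraries and miR-451a in 4. Below theirs were miR-150-5p, miR-155-5p and miR-486a-5p in 6, miR-145a-5p and miR-133a-3p in 5, and miR-142a-3p in 4. The part of these markers in the results below was not tested. In vesicles from bulk feces, fewer vesicles from a cell type and less of a miRNA per vesicle cannot be told apart.

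Among the members, the 5p arms of miR-23b and miR-27b had the highest medians at the start-point and miR-23b-3p the lowest. In order of the median over 10 libraries, miR-23b-5p was at 577 CPM, miR-27b-5p at 439, miR-23a-3p at 383.1, miR-27a-3p at 382.6, miR-27a-5p at 294, miR-23a-5p at 281, miR-24-3p at 164, miR-27b-3p at 145 and miR-23b-3p at 64.0 CPM. Ranges of neighbours in that order overlapped in every case. At the end-point the medians over 7 libraries were 548 CPM for miR-23a-3p, 371 for miR-27a-5p, 340 for miR-27b-5p, 329 for miR-23b-5p, 98.8 for miR-27a-3p, 94.1 for miR-24-3p, 94.0 for miR-23a-5p, 86.1 for miR-27b-3p and 18.5 for miR-23b-3p. Neighbours overlapped there too. In all 17 libraries miR-23b-5p was above miR-23b-3p, the arm usually studied. The arms shown above, which leave out miR-23b-3p, are 20 to 23 bases long, and no correction for length was made. Whether arms of unlike sequence are captured and counted equally was not tested. The order of the arms is therefore one of counts.

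**Figure D1:**
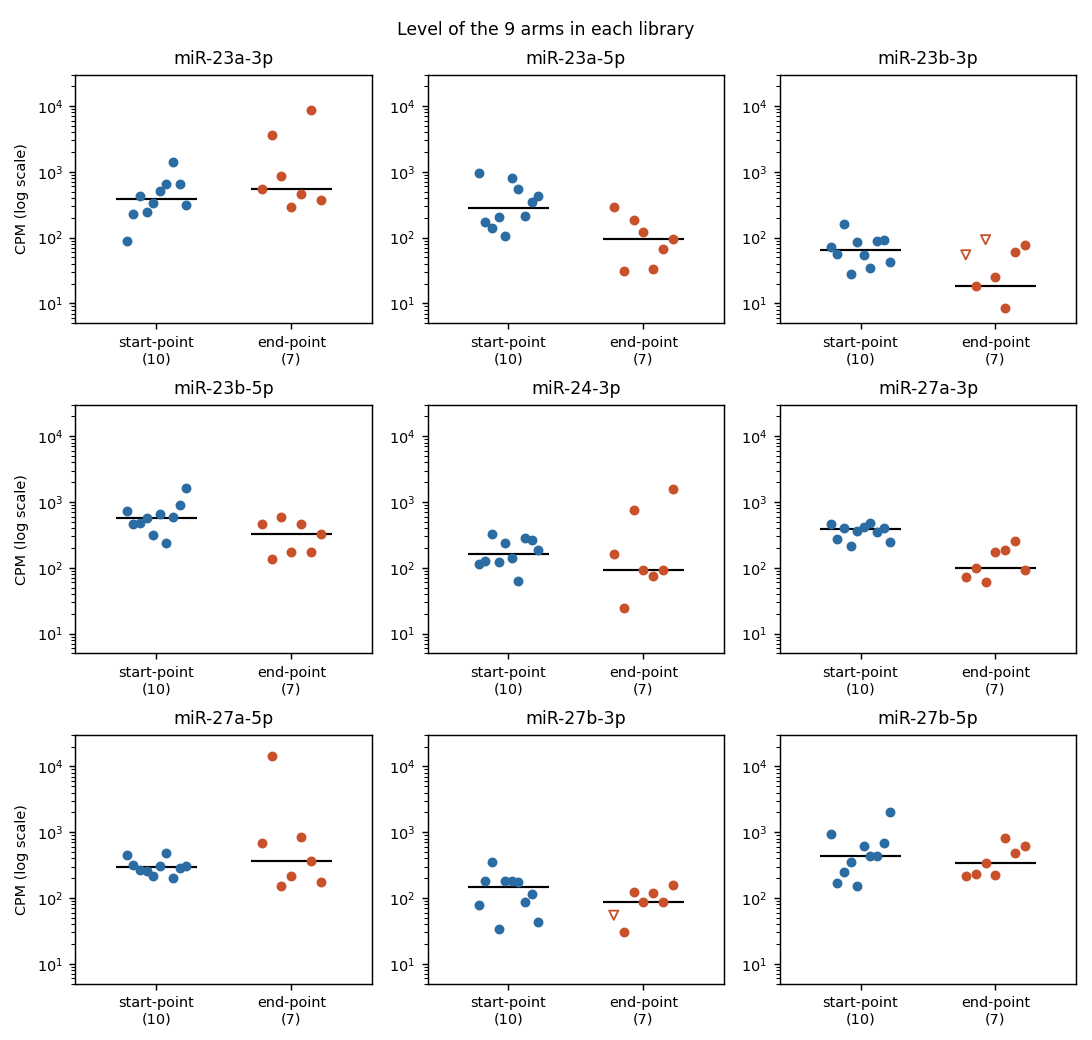
Level in CPM (log axis) of each of the 9 arms in each library, blue for the 10 start-point and orange for the 7 end-point libraries, with a line at each group's median. Open triangles mark libraries with a count of 0, drawn at the value of 3 counts in that library. miR-27a-3p is low in all 7 end-point libraries, while miR-23a-3p and miR-27a-5p are set apart by 1 or 2 end-point libraries.

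Between the time points, 8 of the 9 members could be tested, and 2 rose, 1 fell and 5 did not pass. miR-23a-3p and miR-27a-5p were higher and miR-23a-5p was lower at the end-point, at an adjusted p under 0.05. Of all 1270 smRNAs tested, 33.7% passed, 17.4% as higher and 16.3% as lower, so 3 of 8 is close to the background. The members' median log2 fold change was -0.11, beside -0.18 for all smRNAs. The mouse was also fitted as a fixed block, the block meant below unless named as random. There 0 of the 8 passed in edgeR, beside 8.19% of all smRNAs. Also 0 of the 8 had an unadjusted p under 0.05 in that fit, beside 340 of the 1270 smRNAs. With limma-voom 0 of the 8 passed, beside 362 of 1270 without a block and 357 of 1270 with the mouse as a random block. For none of the 9 members were the CPM of the time points free of overlap, beside 5.59% of all smRNAs tested. Scaling by library totals alone moved the median of all smRNAs from -0.18 to -0.65 and its split from 221 higher and 207 lower to 153 and 327.

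The miR-23a hairpin gave 1 arm that rose and 1 that fell. The 3p arm, miR-23a-3p, was at 90.3 CPM in its lowest start-point library, at a median of 383 and at 1409 CPM in the highest. At the end-point the lowest was 291 CPM, the median 548 and the highest 8574 CPM. End-point libraries 6, at 8574 CPM, and 2, at 3664 CPM, lay above all others, and the remaining 5, from 291 to 866 CPM, lay within the start-point range. Its mean level was 485 ± 372 CPM (SD, n = 10) in start-point libraries against 2111 ± 3088 CPM (SD, n = 7) in end-point ones. The log2 fold change was 3.03 ± 0.70 (SE), with an adjusted p of 0.0021 from edgeR. It fell to 2.30 without end-point library 6, still past the threshold, and to 0.30 without libraries 2 and 6, with an adjusted p of 0.656. Over 30 alternatives the adjusted p ran from 0.00014 to 0.656. Of the 6 mice with both time points, 3 were higher and 3 lower, and the fit with the mouse as a block gave 1.42 with an adjusted p of 0.36.

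The 5p arm of the same hairpin, miR-23a-5p, went the other way. Its start-point libraries ran from 105 CPM over a median of 281 to 968 CPM, and its end-point libraries from 30.9 CPM over a median of 94.0 to 292 CPM. The groups overlapped, with 4 of the 7 end-point libraries under the lowest start-point library. The log2 fold change was -1.66 ± 0.54 (SE), with an adjusted p of 0.02 from edgeR. The adjusted p was 0.05 without start-point library 1, where the fold change was -1.30, and 0.053 without end-point library 7, where it was -1.48. Over 30 alternatives it ran from 0.0083 to 0.272. With the mouse as a block the value was -1.44 with an adjusted p of 0.192, and 4 of 6 mice were lower.

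miR-23b, the paralog on chromosome 13, stayed near the detection limit in its 3p arm. miR-23b-3p had 5 to 24 counts per library at the start-point and 0 to 9 at the end-point, 119 counts in all. Its levels ran from 28.1 over a median of 64.0 to 162 CPM at the start-point and from 0 over a median of 18.5 to 78.3 CPM at the end-point. End-point libraries 1 and 3 held 0 counts, which allows up to 54.8 and 92.8 CPM. It did not pass the filter on low counts and was not tested for time point, although it was lower in 6 of 6 mice. miR-23b-5p ran from 239 over a median of 577 to 1608 CPM at the start-point and from 136 over a median of 329 to 588 CPM at the end-point. Its log2 fold change was -0.55 ± 0.35 (SE), with an adjusted p of 0.228 from edgeR.

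miR-27a, the middle hairpin of the chromosome 8 cluster, also had arms with unlike values. miR-27a-5p was even across the start-point libraries, from 200 over a median of 294 to 484 CPM. At the end-point it ran from 155 over a median of 371 to 14173 CPM. The highest value was in end-point library 2, at 2294 counts, while end-point library 1, which carries the same mouse label, was at 676 CPM. Besides these, only end-point library 5, at 836 CPM, lay above the start-point range, and the other 4 lay within it or, in libraries 3 and 7, just under it. The log2 fold change was 4.28 ± 0.91 (SE), with an adjusted p of 0.0012 from edgeR. Without end-point library 2 it was 0.66, with an adjusted p of 0.282, and the range over 29 alternatives was 9.6e-05 to 0.677. With the mouse as a block it was 1.12 with an adjusted p of 0.491, and 3 of 6 mice were higher.

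The 3p arm, miR-27a-3p, was the steadiest member at the start-point and low in each end-point library. It ran from 213 over a median of 383 to 472 CPM at the start-point, with a mean of 359 ± 88.9 CPM (SD, n = 10). At the end-point it ran from 61.9 over a median of 98.8 to 258 CPM, with a mean of 135 ± 72.1 CPM (SD, n = 7). Of the 7 end-point libraries, 6 lay below every start-point library, and end-point library 6 overlapped them. Of the 8 epithelial markers in the table, miR-192-5p, miR-429-3p, miR-194-5p and miR-375-3p were likewise below their start-point median in all 7 end-point libraries. miR-200a-3p was below in 6 and miR-200b-3p in 5, while miR-215-5p was above its median in 6 and miR-141-3p in 5. The part of these markers was not tested. miR-27a-3p was lower in all 6 mice, from 344 to 258 CPM in mouse 9 and from 398 to 61.9 CPM in mouse 3. On the TMM scale of the fit, which takes the bulk of smRNAs as unchanged, the log2 fold change was -0.79 ± 0.45 (SE) with an adjusted p of 0.174, which did not pass. On library totals, the scale of the CPM values, it was -1.36 with an adjusted p of 0.013, where the median of all smRNAs was -0.65. The adjusted p ran from 0.013 to 0.915 over 30 alternatives, of which that 1 passed.

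miR-27b on chromosome 13 showed no change that passed in either arm. miR-27b-3p ran from 33.7 over a median of 145 to 351 CPM at the start-point and from 0 over a median of 86.1 to 157 CPM at the end-point. The library at 0 was end-point library 1, where 3 counts are worth 54.8 CPM. Its log2 fold change was -0.32 ± 0.56 (SE), with an adjusted p of 0.688 from edgeR. miR-27b-5p ran from 151 over a median of 439 to 2047 CPM at the start-point and from 219 over a median of 340 to 802 CPM at the end-point. All 7 end-point libraries lay within the start-point range, and the log2 fold change was 0.10 ± 0.47 (SE), which turned to -0.52 on library totals.

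miR-24-3p, made by both clusters, ran from 64.1 over a median of 164 to 331 CPM at the start-point and from 24.7 over a median of 94.1 to 1566 CPM at the end-point. The values above the start-point range were in end-point library 7, at 1566 CPM, and library 3, at 743 CPM, both of them shallow. These stand for 100 and 24 counts. The other 5 end-point libraries ran from 24.7 to 164 CPM, none of them above the start-point range. The log2 fold change was 1.19 ± 0.51 (SE), with an adjusted p of 0.071 from edgeR, and it was 0.26 without end-point library 7 and -0.31 without the 3 shallow libraries. It passed without end-point library 1, 2 or 5, at 1.33, 1.36 and 1.34, with adjusted p of 0.046, 0.040 and 0.049 in a range of 0.024 to 0.784 over 30 alternatives. It also passed with the end-point libraries of mouse 1 summed, at 1.34 with an adjusted p of 0.037, and without end-point libraries 2 and 6, at 1.59.

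**Figure D2:**
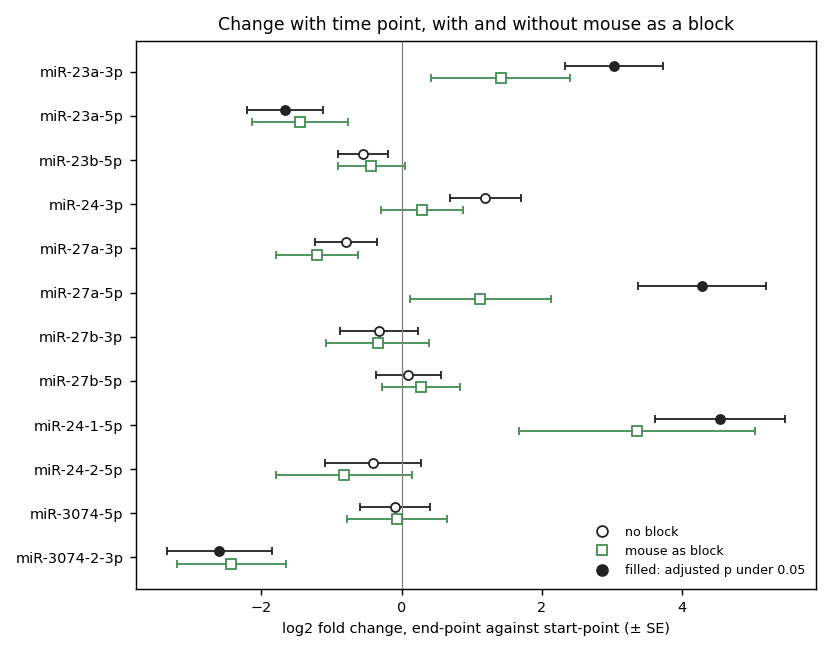
Log2 fold change of the end-point against the start-point (x axis, bars ± SE) for the 8 members and 4 neighbouring arms that could be tested, from the fit without a block (black circles) and with the mouse as a block (green squares). Filled symbols passed an adjusted p under 0.05, which 3 members and 2 neighbouring arms did without the block and none did with it.

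Of the other arms of the 2 loci, 4 of 5 could be tested. Of these 1 rose and 1 fell, beside 17.4% and 16.3% of all smRNAs. Under the fixed block 0 passed, beside 8.19% of all smRNAs. With the mouse as a random block in limma-voom both passed, beside 357 of 1270 smRNAs. Their adjusted p there was 0.018 for miR-24-1-5p and 0.034 for miR-3074-2-3p. The median log2 fold change of the 4 arms tested was -0.25, beside -0.18 for all smRNAs. miR-24-1-5p, the arm paired with miR-24-3p in the chromosome 13 hairpin, ran from 144 over a median of 947 to 4907 CPM at the start-point. At the end-point it ran from 1114 over a median of 9335 to 108366 CPM. End-point libraries 6, 5, 4 and 2 lay above every start-point library and the 3 shallow libraries lay within the range. The log2 fold change was 4.54 ± 0.93 (SE), with an adjusted p of 0.00092 from edgeR, and 3.34 without end-point library 6. With the mouse as a block it was 3.35 with an adjusted p of 0.213, in a range of 3.0e-06 to 0.304 over 30 alternatives, and 4 of 6 mice were higher.

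Its counterpart in the chromosome 8 hairpin, miR-24-2-5p, ran from 45.9 to 301 CPM at the start-point and from 0 to 166 CPM at the end-point, and its log2 fold change, -0.41 ± 0.68 (SE), did not pass (adjusted p = 0.669). The difference between these arms, which share a seed, was not tested. On the strand opposite miR-24-2-5p, miR-3074-2-3p fell. It ran from 393 over a median of 2260 to 18974 CPM at the start-point and from 61.8 over a median of 238 to 1918 CPM at the end-point, and 4 of 7 end-point libraries lay below every start-point library. The log2 fold change was -2.60 ± 0.75 (SE), with an adjusted p of 0.011 from edgeR, and -1.90 without start-point library 3. With the mouse as a block it was -2.43 with an adjusted p of 0.067, in a range of 0.00058 to 0.076 over 30 alternatives, and 5 of 6 mice were lower. miR-3074-5p had 0 to 187 CPM over all libraries and did not pass, at a log2 fold change of -0.09 ± 0.50 (SE). miR-3074-1-3p was at 0 in 7 of 10 start-point libraries, did not pass the filter and was not tested.

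**Figure D3:**
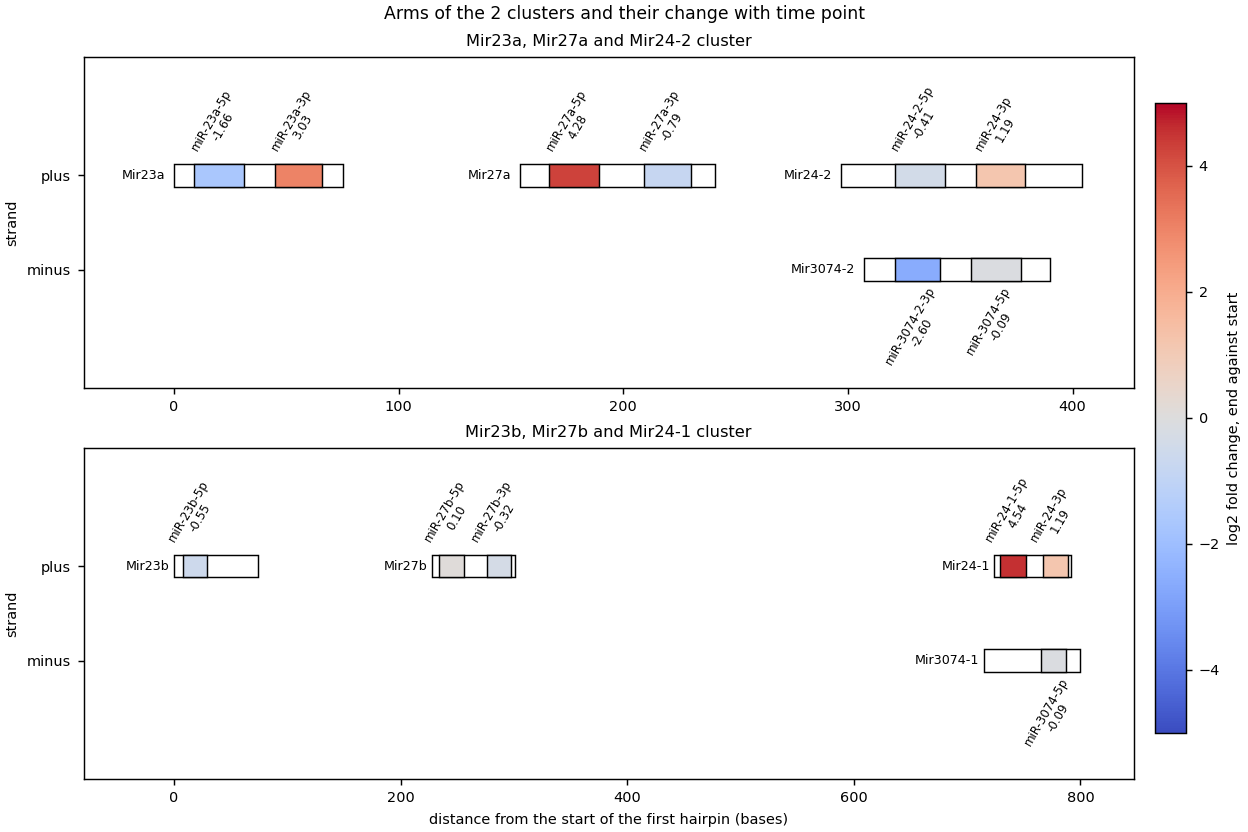
Map of the chromosome 8 cluster (top) and the chromosome 13 cluster (bottom), each panel on its own scale of distance in bases from the first hairpin, with open boxes for hairpins and filled boxes for mature arms. Colour and number give the log2 fold change of the end-point against the start-point without a block. The value of miR-24-3p, 1.19, and that of miR-3074-5p, -0.09, are drawn at both of their loci.

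Ratios between arms within a library do not depend on how libraries are scaled. They were computed as log2 of (count + 0.5) over (count + 0.5) for 12 pairs, and an exact permutation test, two-sided and over 19448 arrangements, compared the time points, with p adjusted over the 12 ratios. The ratio differed between time points for 4 pairs, each of which holds an arm of miR-23a or miR-27a. Within the 6 mice an exact sign-flip test can give no p under 0.031, and 0 of the 12 passed after adjustment. A ratio at that floor could pass only if most of the 12 reached it together, so the lack of calls says little.

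Counts of the miR-27a arms were near balance at the start-point and tilted to the 5p arm at the end-point. The log2 ratio of miR-27a-5p to miR-27a-3p ran from -0.77 over a median of -0.23 to 0.3009 at the start-point. At the end-point it ran from 0.3149 over a median of 1.14 to 7.12, so the groups came close but did not overlap. The means were -0.22 ± 0.43 (SD, n = 10) and 2.16 ± 2.39 (SD, n = 7), and the difference of 2.38 gave p = 5.142e-05 by the exact permutation test, its smallest possible value, and 0.00062 after adjustment. It was higher in 6 of 6 mice (exact sign-flip p = 0.031, adjusted p = 0.094). Without end-point library 2 the difference was 1.56 and the exact permutation test still passed, with an adjusted p of 0.0015 in a range of 0.00052 to 0.094 over 23 alternatives. In the shallow end-point libraries 1, 3 and 7 the ratio came from 37, 5 and 11 counts of miR-27a-5p against 4, 2 and 6 of miR-27a-3p. The values nearest each other came from 42 against 34 counts in start-point library 10 and 25 against 20 in end-point library 4. The lack of overlap therefore rests on few counts.

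miR-23a tilted towards its 3p arm. The log2 ratio of miR-23a-5p to miR-23a-3p ran from -2.68 over a median of -0.33 to 3.38 at the start-point and from -6.95 over a median of -2.13 to -0.89 at the end-point. The groups overlapped, and end-point libraries 6 and 2, at -6.95 and -6.75, were the lowest. The difference of -3.04 gave p = 0.0044 by the exact permutation test and 0.013 after adjustment. It was -1.64 without end-point libraries 2 and 6, with an adjusted p of 0.122, and 5 of 6 mice were lower.

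Among cluster partners, miR-27a-3p fell against miR-23a-3p, its partner in the chromosome 8 cluster. The log2 ratio ran from -2.02 over a median of -0.22 to 2.30 at the start-point and from -5.17 over a median of -2.76 to -0.75 at the end-point. End-point libraries 1, 2, 3 and 6 lay below every start-point library, and the others overlapped. The means were -0.14 ± 1.07 (SD, n = 10) and -2.92 ± 1.75 (SD, n = 7), and the difference of -2.78 gave p = 0.00057 by the exact permutation test and 0.0034 after adjustment. It was lower in 6 of 6 mice, by a mean of -2.60 (exact sign-flip p = 0.031, adjusted p = 0.094).

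The corresponding partners on chromosome 13 gave no such call. The log2 ratio of miR-27b-3p to miR-23b-3p ran from 0.00 over a median of 0.69 to 2.23 at the start-point and from 0.00 over a median of 0.93 to 3.27 at the end-point, from few counts. The difference of 0.61 gave p = 0.249 by the exact permutation test and 0.335 after adjustment, while within mice it was higher in 6 of 6. Whether the partners' shift differs between the clusters was not tested. Ratios of miR-24-3p to the other 3p arms did not pass, at differences of -1.33 against miR-23a-3p, 1.45 against miR-27a-3p, 1.42 against miR-23b-3p and 0.81 against miR-27b-3p. The adjusted p of these exact permutation tests ran from 0.10 to 0.358. The ratio to miR-23b-3p passed without end-point library 2, at 1.82, or 6, at 1.78, without both, at 2.33, and with the end-point libraries of mouse 1 averaged, at 1.50, and it was -0.02 without the 3 shallow libraries. The ratio to miR-23a-3p passed without the shallow libraries, at -3.24, and that to miR-27a-3p without end-point libraries 2 and 6, at 2.28.

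Between paralogs, miR-23a-3p rose against miR-23b-3p. The log2 ratio ran from 0.33 over a median of 2.77 to 4.09 at the start-point and from 2.16 over a median of 5.83 to 7.41 at the end-point, and 5 of 7 end-point libraries lay above every start-point library. The difference of 2.75 gave p = 0.0024 by the exact permutation test and 0.0097 after adjustment, and 5 of 6 mice were higher. At 0 to 9 counts of miR-23b-3p in the end-point libraries, the ratio rests partly on the 0.5 added, and the difference was 2.41 with 1 added instead. For the near-identical pair of miR-27a-3p and miR-27b-3p the difference was -0.64, with p = 0.251 by the exact permutation test and 0.335 after adjustment, and 6 of 6 mice were lower. The ratios between the arms of miR-23b and of miR-27b did not pass, with differences of 0.45 and 0.54 and an adjusted exact permutation p of 0.515 for each.

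**Figure D4:**
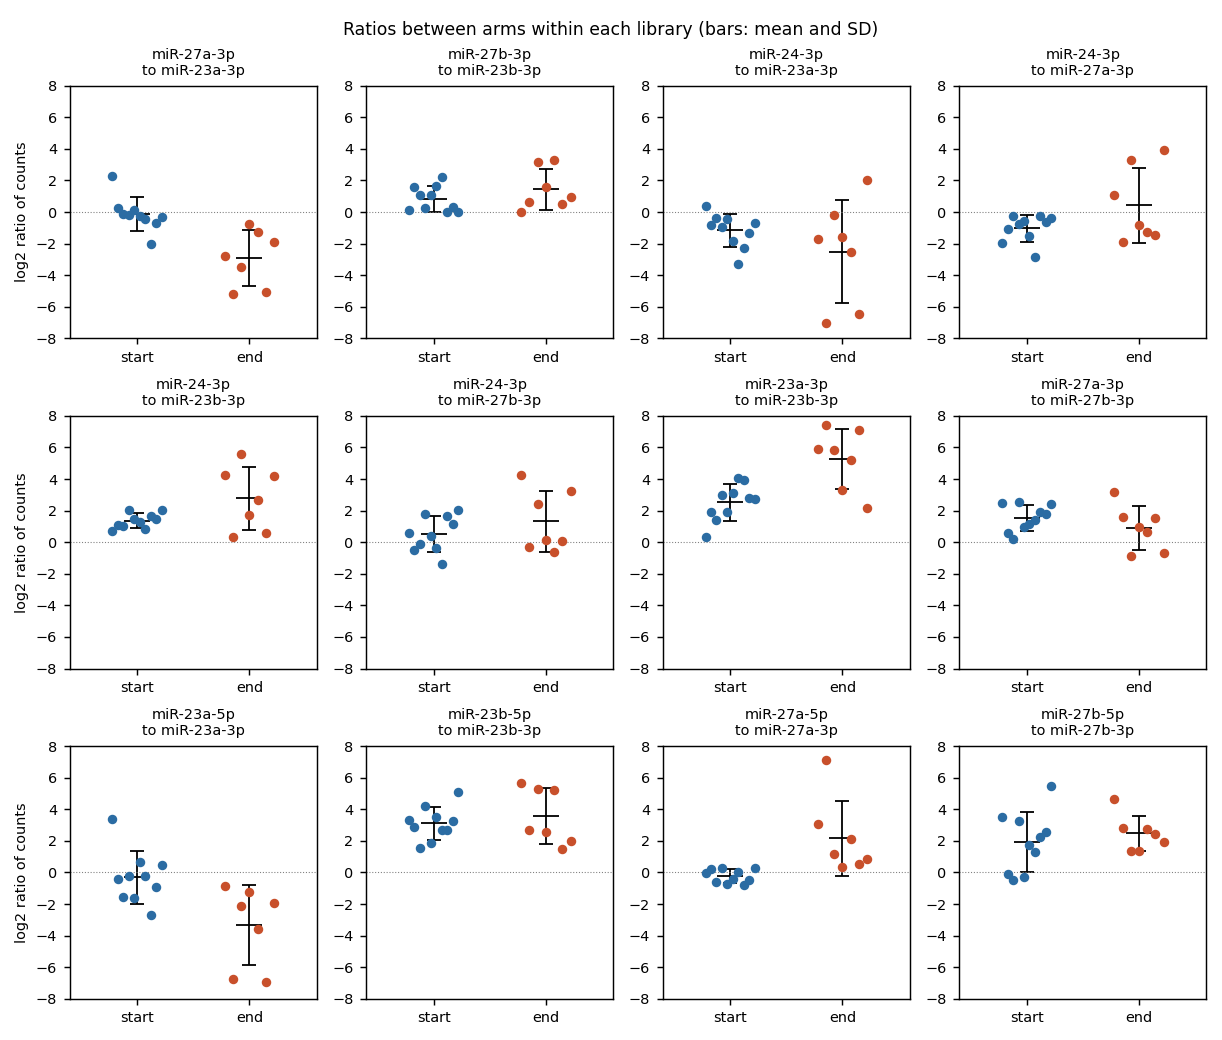
Log2 ratio of counts between 2 arms in each library (y axis, 0 where both are equal) for 12 pairs, blue for the 10 start-point and orange for the 7 end-point libraries, with the mean and SD as bars. The ratio of miR-27a-5p to miR-27a-3p is the 1 pair without overlap, and 3 others passed the exact permutation test.

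The lines drawn for each mouse show how far a change was shared. miR-27a-3p was lower in 6 of 6 mice and miR-3074-2-3p in 5 of 6. miR-23a-3p went from 1409 to 8574 CPM in mouse 9, from 90.3 CPM to a mean of 2106 CPM over 2 end-point libraries in mouse 1, and from 641 to 456 CPM in mouse 7. miR-24-1-5p was higher in mice 1, 5, 7 and 9 and lower in mice 3 and 11, whose end-point libraries were shallow. End-point library 1, of mouse 1, was also shallow, but at 2776 CPM it was above that mouse's start-point library, at 464 CPM.

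**Figure D5:**
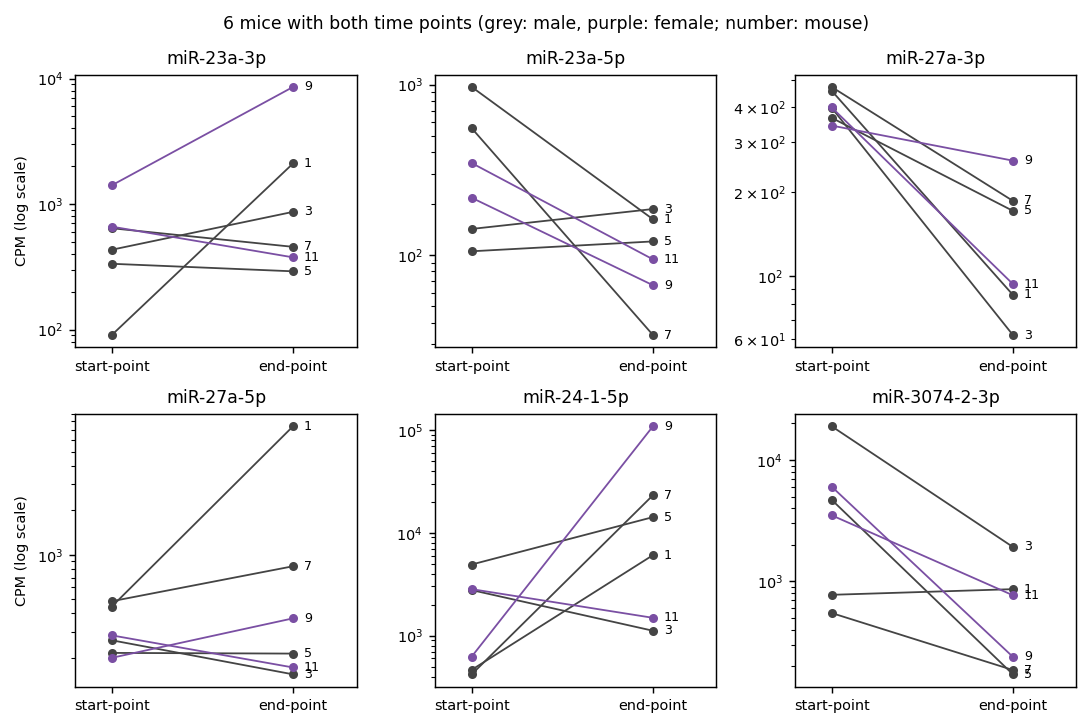
Level in CPM (log axis, scaled to each panel) at the start-point and the end-point in the 6 mice with both, grey for males and purple for females, with the mouse number at the right and the mean of the 2 end-point libraries for mouse 1. miR-27a-3p is lower in all 6 mice, while miR-23a-3p and miR-27a-5p are higher in 3 and lower in 3.

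Between the sexes, with time point in the model, 0 of the 9 members passed in edgeR, also at an unadjusted p under 0.05. The lowest unadjusted p of a member from edgeR was 0.0504, for miR-27a-5p. The fit took the 17 libraries as independent although they came from 10 mice, and no alternative for sex took the mouse into account. Of 1462 smRNAs tested, 0.0% passed in edgeR and 140 had an unadjusted p under 0.05. DESeq2 called 23. It gave no adjusted p for miR-23a-3p, miR-23b-3p, miR-24-3p, miR-27a-5p and miR-27b-3p, so only the other members could be called there, and none was. The members' log2 fold changes of female against male ran from -2.14 for miR-27a-5p, with an SE of 1.04, to 0.90 for miR-24-3p, with an SE of 0.55. Among end-point libraries, miR-27a-5p had a median of 676 CPM in 5 male libraries and values of 172 and 371 CPM in the 2 female ones. miR-23b-3p was at 0 to 25.7 CPM in the male end-point libraries and at 59.6 and 78.3 CPM in the female ones. Its male values of 0 came from libraries where 3 counts are worth 54.8 and 92.8 CPM, so no separation of the sexes is resolved, and its fitted difference was 0.41 with an adjusted p of 0.875 from edgeR.

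Partners of a cluster were not each other's closest matches. Over the 17 libraries, miR-27a-3p ranked 333 of 1269 smRNAs by likeness to its cluster partner miR-23a-3p, with a Spearman rho of 0.15. On chromosome 13, miR-27b-3p ranked 55 of 1270 for miR-23b-3p, with a rho of 0.44. miR-27a-3p ranked 5 for miR-27b-3p, with a rho of 0.66, and also 5 for miR-23b-3p, with a rho of 0.62. From the other side, miR-27b-3p ranked 49 and miR-23b-3p ranked 80 for miR-27a-3p. These ranks describe log2 CPM that share libraries, depth and scaling, and carry no test. On library totals the rho of miR-27a-3p was -0.13 with miR-23a-3p and 0.41 with miR-27b-3p.

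The smRNAs most alike to each 3p arm over the 17 libraries differed between partners. For miR-23a-3p they were miR-6912-3p, miR-6418-5p and miR-7000-5p, with rho from 0.669 to 0.681. For miR-27a-3p they were miR-148a-3p, let-7a-5p and miR-200a-3p, with rho from 0.858 to 0.867, the last being an epithelial marker of the miR-200 family. For miR-27b-3p they were miR-200a-3p, miR-16-5p and let-7a-5p, from 0.684 to 0.772, and for miR-23b-3p they were miR-194-5p, let-7b-5p and miR-431-3p, from 0.645 to 0.681. For miR-24-3p they were miR-6896-5p, miR-7032-5p and miR-6931-5p, from 0.632 to 0.733.

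Correlations were tested only in the start-point set of 6 libraries, since the other sets are smaller. Libraries of different start-point sets were less alike, at a mean rho of 0.493, against 0.741 within sets. Of 10 pairs of 3p arms, 2 passed by Pearson's r after adjustment over the pairs and 0 by Spearman's rho. miR-23b-3p had r = 0.921 and rho = 0.943 with miR-24-3p, with exact permutation p of 0.0056 and 0.017 and adjusted p of 0.042 and 0.083. With miR-27a-3p, from the other cluster, it had r = 0.938 and rho = 0.943, with exact permutation p of 0.0083 and 0.017 and the same adjusted p. Without the 2 libraries farthest from the median, r was 0.929 and 0.949 over 4 libraries. miR-23a-3p and miR-27a-3p, of 1 cluster, had r = 0.420 and rho = 0.486, with exact permutation p of 0.393 and 0.356 and adjusted p of 0.437 and 0.395. The other pair of 1 cluster, miR-23b-3p and miR-27b-3p, had r = 0.878 and rho = 0.771, with exact permutation p of 0.025 and 0.103 and adjusted p of 0.053 and 0.206, and r was 0.290 without the 2 libraries farthest from the median. On library totals 0 of the 10 pairs passed, so these correlations depend on the scaling.

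Of 10 miRNAs often reported in endothelium, angiogenesis and hypoxia, 8 were in the table and 7 could be tested, of which 1 rose and 0 fell, beside 17.4% and 16.3% of all smRNAs. Their median log2 fold change was -0.56. The 1 that rose was miR-130a-3p, known to promote angiogenesis, which ran from 206 over a median of 436 to 3547 CPM at the start-point and from 292 over a median of 1952 to 15539 CPM at the end-point. End-point libraries 6, 4 and 5 were the highest and lay above all start-point libraries. Its log2 fold change was 3.53 ± 0.75 (SE), with an adjusted p of 0.0012 from edgeR, and 2.88 without end-point library 6. With the mouse as a block it was 3.10 with an adjusted p of 0.161, in a range of 6.4e-06 to 0.346 over 30 alternatives. A further list member passed when 1 library was left out, miR-132-3p without start-point library 3 or 5 or end-point library 1 or 3, and miR-222-3p without end-point library 5, which makes 2. Both are named after their values were seen, and over all libraries their log2 fold changes were -1.15 and -1.30, with adjusted p of 0.051 and 0.157 from edgeR.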

How the data were processed

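The deposited table holds raw counts per smRNA and library, whole numbers that the authors left unnormalized as far as their values show. Per the labels' protocols, exosomes were precipitated from feces, and libraries were made from their RNA with a QIAseq kit, which adds unique molecular identifiers. Whether the identifiers were used is not given in the sources used here, and if they were not, copies made by PCR widen the spread. The submitters' processing notes name bcl2fastq and the build GRCm38. The aligner and counter are not given in the sources used here. Positions, sequences and host genes come from RefSeq on GRCm38.p6 and the GENCODE vM21 annotation. A mature sequence was matched for 8 of 9 members and for 4 of 5 other arms of the loci.

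Libraries were grouped by time point, with sex and mouse from the labels. Depth averaged 137980 ± 30050 counts (SD, n = 10) over start-point and 99884 ± 49989 counts (SD, n = 7) over end-point libraries. The members held 0.476% of counts, and precision is limited for the arms with few counts. Detection floors of 3 counts cover counting error only. Counts of all smRNAs passing filterByExpr were fitted with edgeR 4.0.16 in R 4.3.3 (glmQLFit with legacy = FALSE, TMM factors, glmQLFTest), for time point over 1270 and for sex with time point over 1462 smRNAs, and adjusted by the Benjamini-Hochberg method over all smRNAs tested. A call is an adjusted p under 0.05. Printed CPM are scaled to library totals without TMM factors. Ratios used 0.5 as a pseudocount and exact permutation tests, computed directly over all arrangements. SciPy 1.17.1 served for ranks and for splitting the libraries into sets. Scripts were tested on simulated data. Named smRNAs are the members, the other arms of the 2 loci, called miRNAs of the endothelial list and the 3 smRNAs most alike to each 3p arm. The members and lists were chosen with earlier results of these data known.

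The mouse pairs libraries, as same-mouse libraries come from 1 animal. Their deviations from the group means correlated at a mean r of 0.094 over 7 pairs, from -0.072 to 0.26. Correlations were planned within each time point. They were restricted to the 6 libraries of 1 set after the libraries of each time point had been split into 2 sets. Alternatives covered DESeq2 1.42.0, limma-voom (limma 3.58.1), scaling, filters, the mouse as a fixed block (edgeR) or a random block (limma-voom) and left-out libraries.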

Additional observations from a re-analysis of the deposited data

Results flagged for a closer look

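In 12 of 52 groups of libraries examined, 1 library lay far from the others of its time point by Dixon's criterion. Normally distributed values meet it in about 1 in 20 groups. Levels were examined as CPM without a log scale, so that rate need not hold for them, and 12 of 52 was not tested against it. At the start-point, library 3 was high for miR-23b-3p at 162 CPM, miR-27b-3p at 351 CPM and miR-3074-2-3p at 18974 CPM. Start-point library 10, from a female, was high for 2 of the 5p arms of the chromosome 13 cluster, miR-23b-5p at 1608 CPM and miR-27b-5p at 2047 CPM. The other 5p arm there, miR-24-1-5p, was at 144 CPM in that library, its lowest start-point value. miR-23a-3p stood apart in start-point library 8 at 1409 CPM and miR-3074-1-3p in start-point library 9 at 146 CPM, where 7 of the 10 libraries were at 0. In start-point library 1 the log2 ratio of miR-27a-3p to miR-23a-3p was 2.30.

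At the end-point, library 6 stood apart for miR-23a-3p at 8574 CPM and for miR-24-1-5p at 108366 CPM. It came from mouse 9, whose start-point library, library 8, was also the highest of its time point for miR-23a-3p. End-point library 2 stood apart for miR-27a-5p at 14173 CPM and for the log2 ratio of miR-27a-5p to miR-27a-3p at 7.12.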

How the results depend on the processing

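Alternatives other than single left-out libraries gave 333 values, of which 271 kept their direction and side of the threshold. The edgeR legacy setting and leaving out end-point libraries 2 and 6 were chosen after seeing the data. Members called for time point went from 3 to 0 with the mouse as a fixed block (replicate block), also without the second end-point library of mouse 1, and to 0 with limma-voom, with or without the mouse as a random block. Without end-point libraries 2 and 6 the 3 calls were lost and 1 other member, miR-24-3p, was called at 1.59. The count ran from 2 to 4 over the 17 single libraries left out. The other arms of the loci went from 2 called to 0 with either fixed block and 1 in males only, and stayed at 2 with the random block. The endothelial list went from 1 to 2 with DESeq2 size factors, library totals, the DESeq2 test or mouse 1 summed, to 3 with no filter or without the shallow libraries, to 0 with either fixed block, and ran from 1 to 2 over single libraries. With the random block it stayed at 1, which was miR-222-3p and not miR-130a-3p. All smRNAs called went from 428 to 104 and 85 with the fixed blocks and 211 in males only. Ratios past the threshold went from 4 to 0 within mice, where the smallest p of the sign-flip test left little room for a call. Correlations went from 2 to 0 on library totals. The mouse block left the other members uncalled as they were. The cause of these differences was not tested, beyond the fewer libraries where some were left out.

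Without the 3 shallow libraries the sign turned for miR-24-3p at -0.31, miR-27b-3p at 0.069, miR-24-2-5p at 0.49 and miR-3074-5p at 0.24. It also turned for the ratios of miR-24-3p to miR-27a-3p at -0.32, to miR-23b-3p at -0.017 and to miR-27b-3p at -0.69, and of the miR-23b arms at -0.12. The sex difference turned to -0.10 for miR-23b-3p and -0.063 for miR-24-3p. On library totals it turned for miR-27b-5p at -0.52 for time point, and for sex in miR-23b-5p at 0.52 and miR-27a-3p at 0.13. Mouse 1 summed gave miR-3074-5p 0.0011, and without end-point libraries 2 and 6 the ratio of miR-24-3p to miR-23a-3p was 0.37. Over single libraries left out, signs turned for miR-27b-5p (-0.18 to 0.40) and miR-3074-5p (-0.29 to 0.14). For sex they turned for miR-23a-3p (-0.082 to 1.86), miR-23b-5p (-0.28 to 0.046) and miR-24-3p (-0.14 to 1.27). None of the values that turned passed a test. At the end-point miR-23b-3p had 0 to 9 counts per library and miR-27b-3p 0 to 14, and such low counts limit the precision of their values.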
